A study of Mus musculus with 6 samples.

Results

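The 10 genes described here encode the main folding factors of the endoplasmic reticulum (ER) and the transducers of the unfolded protein response (UPR): Hspa5, Hsp90b1, Calr, Canx, Pdia4, Pdia6, Xbp1, Atf6, Ern1 and Eif2ak3. They were chosen by name, as the rows of the deposited tables whose gene symbol equals one of these names, and all 10 were found among 24391 genes. RNA sequencing compared 3 libraries labelled KMT2D KO with 3 labelled KMT2D WT, both from tumour cells of iBIP mice kept in culture in high-glucose DMEM. KMT2D KO cells came from mice with both Kmt2d alleles floxed (iBIP;KMT2DL/L), and KMT2D WT cells from mice with intact Kmt2d (iBIP;KMT2D+/+). The Kmt2d product methylates histone H3 at lysine 4, chiefly on enhancers. Cells of both groups carried Tyr-CreERT2, a Cre that the tyrosinase promoter drives in the melanocyte lineage and that tamoxifen activates. Both also carried Rosa26-rtta, TetO-BRAFV600E, PTENL/L and INK/ARFL/L on a mixed FVB and B6 background. The mice received doxycycline, which switches on the BRAF transgene, and 4-OHT on the ears, where the tumours arose. The labels give no age and leave unstated whether a group's 3 libraries are of different mice, tumours or cultures. In the column headers each group has 1 identifier, and the groups share none. All p-values therefore cover the spread among these libraries alone, possibly a technical one, and Kmt2d status cannot be told apart from other differences between the source tumours.

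Proteins that enter the ER are folded there by chaperones and by enzymes that form disulfide bonds. When unfolded proteins accumulate, the transmembrane sensors IRE1 (Ern1), PERK (Eif2ak3) and ATF6 (Atf6) are released from the chaperone BiP (Hspa5) and become active. IRE1 splices Xbp1 mRNA so that it encodes an active transcription factor, PERK slows translation, and ATF6 is cut in the Golgi to free a transcription factor. XBP1 and ATF6 then raise transcription of chaperone genes through the ER stress element in their promoters. Activation of the sensors takes place on the protein or by splicing, neither of which gene totals record.

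Total counts were 55594979 to 79718782 in KMT2D KO and 43168605 to 59360068 in KMT2D WT. The targeted gene, Kmt2d, lay between 69.3 and 79.8 CPM (counts relative to library size, with TMM scaling) in KMT2D KO and between 79.7 and 101 CPM in KMT2D WT, so the groups overlapped. Its log2 fold change, KMT2D KO minus KMT2D WT, was -0.27 (SE 0.08, edgeR adjusted p = 0.00749), and without KMT2D KO replicate 2 it was -0.21 and no longer called (adjusted p = 0.0578, where the 14 alternative fits gave 0.000574 to 0.0578). Whole-gene counts do not show whether floxed exons were lost. Of 10 melanocyte markers, 2 had a mean of at least 1 CPM in KMT2D KO (Mitf and Pmel) and 1 in KMT2D WT (Mitf). Mitf, the master transcription factor of melanocytes, averaged 53.2 CPM in KMT2D KO and 15.4 CPM in KMT2D WT (log2 fold change 1.79, adjusted p = 2.84e-11), and Mlana, at 0.360 CPM in KMT2D KO and 0.0507 CPM in KMT2D WT, was also called higher. Tyr, Tyrp1 and Dct, whose pigment-making enzymes define the labelled lineage, were nearly absent, at no more than 0.163 CPM in any KMT2D KO library and 0.112 CPM in any KMT2D WT library. The 10 markers of cerebellum, a tissue that the extraction protocol names, summed to 1.68 to 2.54 CPM in KMT2D KO and 0.975 to 1.50 CPM in KMT2D WT. The 4 tested Y-linked genes summed to 0.873 to 1.43 CPM in KMT2D KO and 202 to 230.3 CPM in KMT2D WT, while Xist stayed at or below 0.201 CPM in all 6 libraries. The groups thus also differed in Y-linked expression, which cannot be told apart from Kmt2d status.

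Most folding genes and Xbp1 were modestly higher in KMT2D KO, while the sensor gene Ern1 was far lower. A gene was called when the quasi-likelihood F test of edgeR gave a Benjamini-Hochberg adjusted p under 0.05 over all 14579 tested genes. All 10 genes passed the low-count filter, and 9 were called, 6 higher and 3 lower in KMT2D KO. This share has to be read against all tested genes, of which 71.0% were called, 35.4% higher and 35.5% lower. In counts these were 5164 genes higher and 5181 lower, and with scaling by library size alone 4415 were higher and 5987 lower. Among the 2142 tested genes that averaged at least 100 CPM, as most of the 10 genes did, the share called was 81.5%. The groups did not overlap in 9 of the 10 genes, against 74.3% of all tested genes. With an absolute log2 fold change above 1 as a further condition, 1 of the 10 genes was called, against 26.8% of all tested genes. The median log2 fold change was 0.40 over the 10 genes and 0.00 over all tested genes. In bulk RNA, fewer cells of a type and less RNA per cell cannot be told apart.

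**Figure D1:**
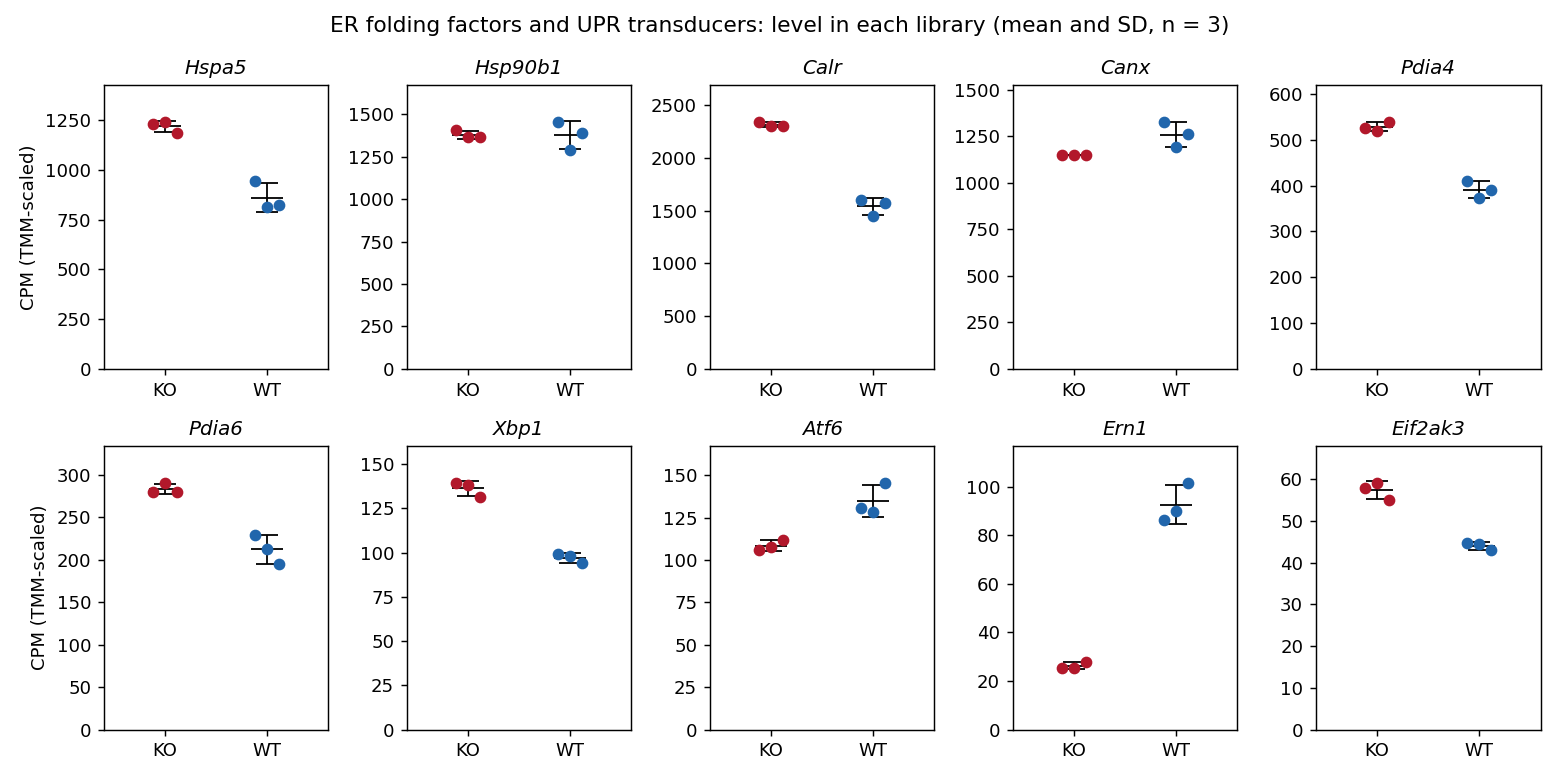
Level of each of the 10 genes in CPM (vertical axes, starting at 0) in the 3 KMT2D KO and 3 KMT2D WT libraries (1 point per library, bars show mean and SD). The 2 groups overlap in Hsp90b1 and in none of the other 9 genes, and Ern1 lies at 25.3 to 28.0 CPM in KMT2D KO against 86.5 to 102 CPM in KMT2D WT.

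Hspa5 encodes BiP, the HSP70 chaperone of the ER lumen and the partner that holds the sensors inactive (mm9 chromosome 2, 34627610 to 34632049). It had 1229, 1240 and 1186 CPM in KMT2D KO replicates 1, 2 and 3, against 944, 811 and 822 CPM in KMT2D WT replicates 1, 2 and 3. The lowest KMT2D KO library lay above the highest KMT2D WT library, and KMT2D WT replicate 1 stood above the other two of its group. Hspa5 averaged 1218 ± 28.4 CPM in KMT2D KO and 859 ± 73.9 CPM in KMT2D WT (SD, n = 3 each), which was 1.42-fold higher in KMT2D KO (log2 fold change 0.50, SE 0.06, edgeR adjusted p = 2.45e-06).

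Hsp90b1 encodes GRP94, the HSP90 chaperone of the ER, which folds integrins and Toll-like receptors among other clients (chromosome 10, 86153586 to 86168189). Its level was 1405, 1365 and 1368 CPM in KMT2D KO replicates 1 to 3 and 1455, 1290 and 1388 CPM in KMT2D WT replicates 1 to 3. The KMT2D KO libraries lay inside the range of the KMT2D WT libraries. The log2 fold change was 0.00 (SE 0.05, edgeR adjusted p = 0.977), so BiP and GRP94, which are usually named together as UPR chaperones, differed in outcome between the groups, although the difference between the 2 genes was not itself tested.

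The lectin chaperones calreticulin and calnexin bind newly made glycoproteins that carry a single glucose. Calr, the soluble one (chromosome 8, 87365987 to 87370830), had 2339, 2299 and 2302 CPM in KMT2D KO and 1602, 1450 and 1567 CPM in KMT2D WT, replicates 1 to 3 in each. The KMT2D KO libraries lay close together and well above every KMT2D WT library. Calr was 1.50-fold higher in KMT2D KO (log2 fold change 0.59, SE 0.05, edgeR adjusted p = 6.92e-08), the largest rise among the 10 genes. Canx, the membrane-bound partner (chromosome 11, 50107459 to 50139175), had 1148, 1149 and 1149 CPM in KMT2D KO and 1326, 1190 and 1259 CPM in KMT2D WT. Its groups did not overlap, but the gap between the nearest libraries was small. The log2 fold change was -0.13 (SE 0.05, edgeR adjusted p = 0.0303), and Canx was no longer called without KMT2D KO replicate 1, 2 or 3 (adjusted p = 0.111, 0.110 and 0.0808), without KMT2D WT replicate 1 (0.112) or with no low-count filter (0.0852). Over the 14 alternative fits its adjusted p lay between 0.00051 and 0.112.

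Pdia4 and Pdia6 encode protein disulfide isomerases, which make and rearrange disulfide bonds, and PDIA6 is also known to dampen IRE1 and PERK signalling. Pdia4 (chromosome 6, 47746140 to 47763511) had 526, 520.0 and 539 CPM in KMT2D KO replicates 1 to 3, against 409, 374 and 391 CPM in KMT2D WT replicates 1 to 3. Pdia6 (chromosome 12, 17273401 to 17291576) had 280.3, 291 and 279 CPM in KMT2D KO, against 229, 213 and 195 CPM in KMT2D WT. Neither gene's groups overlapped. Pdia4 was 1.35-fold higher in KMT2D KO (log2 fold change 0.43, SE 0.05, edgeR adjusted p = 2.31e-06) and Pdia6 1.33-fold higher (log2 fold change 0.42, SE 0.06, adjusted p = 1.83e-05). Pdia6 shares 50 exonic bases with Atp6v1c2 and Pdia4 shares 14 with Mir704, and fragments on such bases are left out by default.

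Xbp1, the transcription factor gene whose mRNA IRE1 splices (chromosome 11, 5420644 to 5425996), had 139, 138 and 131 CPM in KMT2D KO and 99.2, 97.9 and 94.0 CPM in KMT2D WT, replicates 1 to 3 in each. Every KMT2D KO library was above every KMT2D WT library. Xbp1 was 1.41-fold higher in KMT2D KO (log2 fold change 0.49, SE 0.05, edgeR adjusted p = 9.39e-07). Spliced and unspliced forms are summed in these counts.

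Ern1, which encodes the kinase and RNase IRE1 (chromosome 11, 106258934 to 106349110), moved the other way from the mRNA that its product splices. It had 25.3, 25.6 and 28.0 CPM in KMT2D KO replicates 1 to 3, against 86.5, 89.8 and 102 CPM in KMT2D WT replicates 1 to 3. The ranges were far apart, and they rest on counts of 1489 to 1942 in KMT2D KO and 4545 to 5562 in KMT2D WT. Ern1 was 3.52-fold lower in KMT2D KO (log2 fold change -1.82, SE 0.07, edgeR adjusted p = 1.08e-11), and of the 10 genes it was the one that passed the further condition on fold change. Over 14 alternative fits its log2 fold change lay between -1.93 and -1.74. Its paralogue Ern2, known mainly from mucous epithelia, was at 0 in KMT2D KO and at 0.00538 CPM in KMT2D WT and was not tested.

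Atf6 and Eif2ak3 differed by less. Atf6, which encodes the membrane-bound precursor of a transcription factor (chromosome 1, 172634588 to 172797902) had 106, 108 and 112 CPM in KMT2D KO, against 131, 128 and 146 CPM in KMT2D WT, replicates 1 to 3 in each. It was 1.24-fold lower in KMT2D KO (log2 fold change -0.31, SE 0.06, edgeR adjusted p = 0.000265). Eif2ak3, which encodes the eIF2 alpha kinase PERK (chromosome 6, 70794521 to 70855234), had 57.9, 59.2 and 55.1 CPM in KMT2D KO, against 44.7, 44.5 and 43.0 CPM in KMT2D WT. It was 1.30-fold higher in KMT2D KO (log2 fold change 0.38, SE 0.06, adjusted p = 4.63e-05). The groups of both genes were separate, so the 3 sensor genes comprised 1 that rose and 2 that fell.

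**Figure D2:**
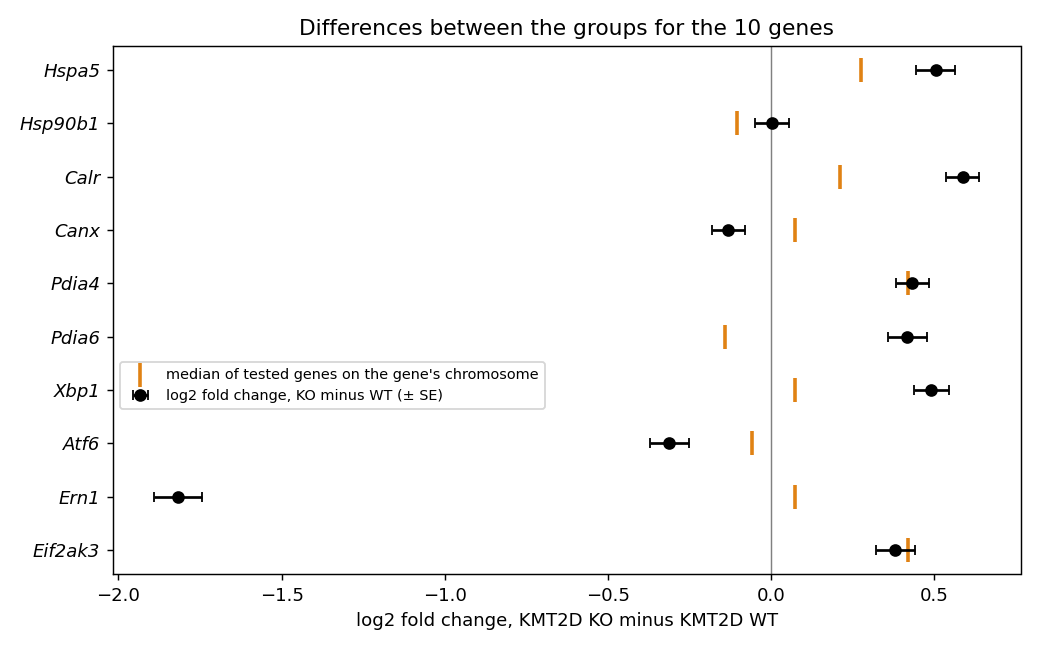
Log2 fold change of each gene, KMT2D KO minus KMT2D WT (points with SE), with the median log2 fold change of all tested genes of its chromosome (orange ticks). Ern1 stands at -1.82, and Pdia4 and Eif2ak3 lie beside the chromosome 6 median of 0.42.

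Position on the chromosome moved with some of these values. Across the 721 tested genes of chromosome 6, which holds Pdia4 and Eif2ak3, the median log2 fold change was 0.42. Relative to that median, Pdia4 was at 0.01 and Eif2ak3 at -0.04. On chromosome 2, the home of Hspa5, the median was 0.27, and Hspa5 was at 0.23 relative to it. Calr, Pdia6 and Xbp1 were at 0.38, 0.56 and 0.42 relative to their own chromosomes, and Ern1 was at -1.89. Whether copy number differed between the groups was not tested.

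As a share of all counts, the 6 folding genes together took 0.653% to 0.667% of each library in KMT2D KO and 0.556% to 0.619% in KMT2D WT. The 3 sensor genes and Xbp1 together took 0.0312% to 0.0320% in KMT2D KO and 0.0374% to 0.0398% in KMT2D WT. Between libraries of a group, the coefficient of variation of CPM was 0.0690% (Canx, below the 0.374% that counting error alone gives) to 5.65% (Ern1) in KMT2D KO and 2.19% (Eif2ak3) to 8.60% (Hspa5) in KMT2D WT.

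Scaled by exonic length, as RPKM, the levels spanned a wide range and kept nearly the same order in both groups. In KMT2D KO the order was Calr (1191 ± 11.4 RPKM), Hsp90b1 (499.9 ± 8.04), Hspa5 (466 ± 10.8), Canx (268 ± 0.185), Pdia4 (213 ± 3.93), Pdia6 (133 ± 2.96), Xbp1 (60.7 ± 1.91), Atf6 (14.5 ± 0.430), Eif2ak3 (12.8 ± 0.470) and Ern1 (6.61 ± 0.373) (SD, n = 3). The KMT2D WT order was the same down to Xbp1, from Calr at 792 ± 41.0 to Xbp1 at 43.2 ± 1.20 RPKM. Ern1 then came before the other sensor genes at 23.3 ± 2.00 RPKM, followed by Atf6 at 18.1 ± 1.26 and Eif2ak3 at 9.80 ± 0.215 RPKM. Within each group, no gene's libraries overlapped those of its neighbour in this order. Ern1 was thus the most abundant sensor mRNA per length in KMT2D WT and the least abundant in KMT2D KO.

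**Figure D3:**
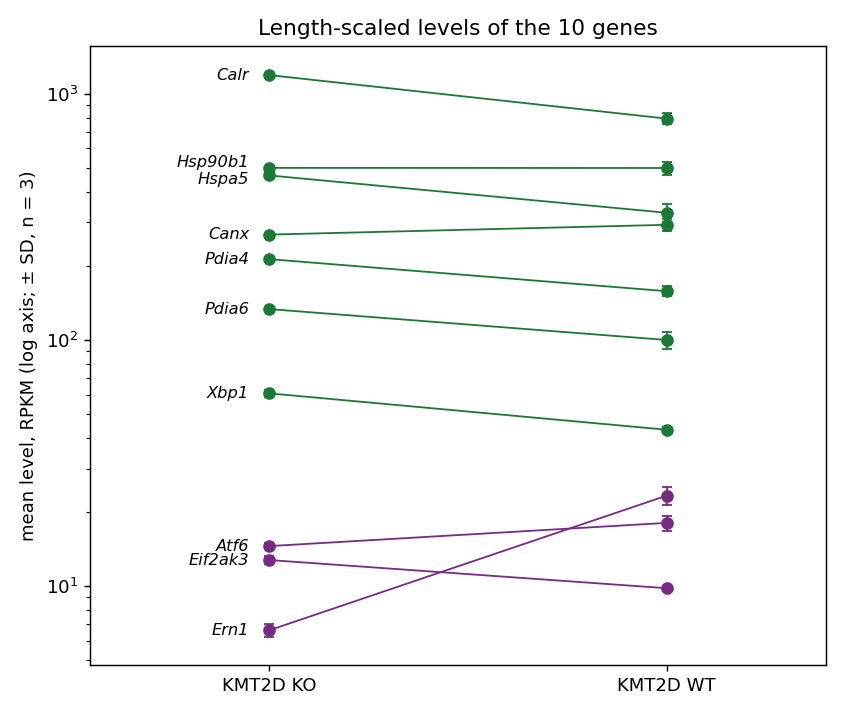
Mean length-scaled level of each gene (RPKM, log axis, bars show SD over 3 libraries) in KMT2D KO (left) and KMT2D WT (right), with folding genes and Xbp1 in green and sensor genes in purple. The lines of the upper genes stay in order, and that of Ern1, at 6.61 RPKM in KMT2D KO and 23.3 RPKM in KMT2D WT, crosses those of Atf6 and Eif2ak3.

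Promoters were searched for the ER stress element, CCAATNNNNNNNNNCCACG, through which ATF6 and XBP1 are known to act. RefSeq promoter windows (GRCm38.p6, 250 bases before to 50 after the annotated start) were found for 9 of the 10 genes, all but Atf6, and were searched on both strands. Of these 9, 5 held the element, all 5 of them folding genes, against 0.119% of 32851 windows of the same length. Chaperone genes are known to carry this element, as described above, so its presence here was no independent result. The 250 bases before the start of those 5 genes are shown because they carry the element that 5 of the 6 folding genes have in common, with its fixed bases in capitals (CGTGG and ATTGG where it lies on the opposite strand):
Hspa5 (chr2:34771840-34772089, plus strand): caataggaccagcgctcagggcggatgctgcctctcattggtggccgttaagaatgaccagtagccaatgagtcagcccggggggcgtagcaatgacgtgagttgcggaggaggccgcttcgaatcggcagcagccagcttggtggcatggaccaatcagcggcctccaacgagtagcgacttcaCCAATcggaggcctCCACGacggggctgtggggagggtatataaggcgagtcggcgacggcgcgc
Hsp90b1 (chr10:86705445-86705694, minus strand): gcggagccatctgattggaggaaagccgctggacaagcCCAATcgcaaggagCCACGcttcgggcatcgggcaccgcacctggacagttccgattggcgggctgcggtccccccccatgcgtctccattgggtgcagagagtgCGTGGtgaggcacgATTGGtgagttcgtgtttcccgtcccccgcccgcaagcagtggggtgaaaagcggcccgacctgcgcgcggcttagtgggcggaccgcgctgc
Calr (chr8:84846932-84847181, minus strand): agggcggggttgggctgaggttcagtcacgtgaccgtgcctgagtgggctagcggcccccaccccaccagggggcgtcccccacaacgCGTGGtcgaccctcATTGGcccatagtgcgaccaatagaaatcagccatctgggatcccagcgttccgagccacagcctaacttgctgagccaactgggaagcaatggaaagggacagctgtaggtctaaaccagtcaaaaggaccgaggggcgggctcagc
Canx (chr11:50325674-50325923, minus strand): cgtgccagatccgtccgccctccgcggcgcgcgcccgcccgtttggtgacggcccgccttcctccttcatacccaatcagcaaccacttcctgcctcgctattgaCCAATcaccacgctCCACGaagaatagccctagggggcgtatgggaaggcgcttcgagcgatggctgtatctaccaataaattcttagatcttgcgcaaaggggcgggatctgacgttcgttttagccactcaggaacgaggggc
Pdia6 (chr12:17266339-17266588, plus strand): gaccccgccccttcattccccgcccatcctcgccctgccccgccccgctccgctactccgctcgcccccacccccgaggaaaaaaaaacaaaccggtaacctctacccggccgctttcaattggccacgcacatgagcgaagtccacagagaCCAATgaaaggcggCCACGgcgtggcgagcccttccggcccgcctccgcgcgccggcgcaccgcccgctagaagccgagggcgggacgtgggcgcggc

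The element began 65 bases before the start in Hspa5, 145 in Canx and 98 in Pdia6, on the strand of the gene. In Calr it lay on the opposite strand, with its left end 162 bases before the start. Hsp90b1 held 2 copies, 1 on each strand, at 212 and 107 bases. These 5 genes with a shared element had different outcomes: Hspa5, Calr and Pdia6 were higher in KMT2D KO, Canx was lower, and Hsp90b1 was not called. Windows of Pdia4, Xbp1, Ern1 and Eif2ak3 held no match to these letters, and the related motifs ATTGGNCCACG (ERSE-II, in 0.0365% of windows) and TGACGTGG (in 0.676%) had no match in any of the 9. Among 155 other ER folding and stress genes described further on, 123 had a window and 5 held the element, as against 0.137% of 27025 genes with a window. These were listed as ER folding and stress genes, so this too was no independent result. Of the 5 with the element, Dnajc3 (log2 fold change -0.81), Creld2 (-0.37) and Ero1lb (-0.23) were called lower in KMT2D KO. Syvn1 (0.29) and Derl3 (2.62, at 5.47 CPM in KMT2D KO and 0.888 CPM in KMT2D WT) were called higher. The call of Ero1lb was marginal (edgeR adjusted p = 0.0468), and its groups overlapped. Relative to its chromosome median, Ero1lb turned to 0.31 and Syvn1 was at 0.12, while Dnajc3 (-0.68), Creld2 (-0.41) and Derl3 (2.72) kept their direction. A match describes these letters in this window only and shows no binding.

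**Figure D4:**
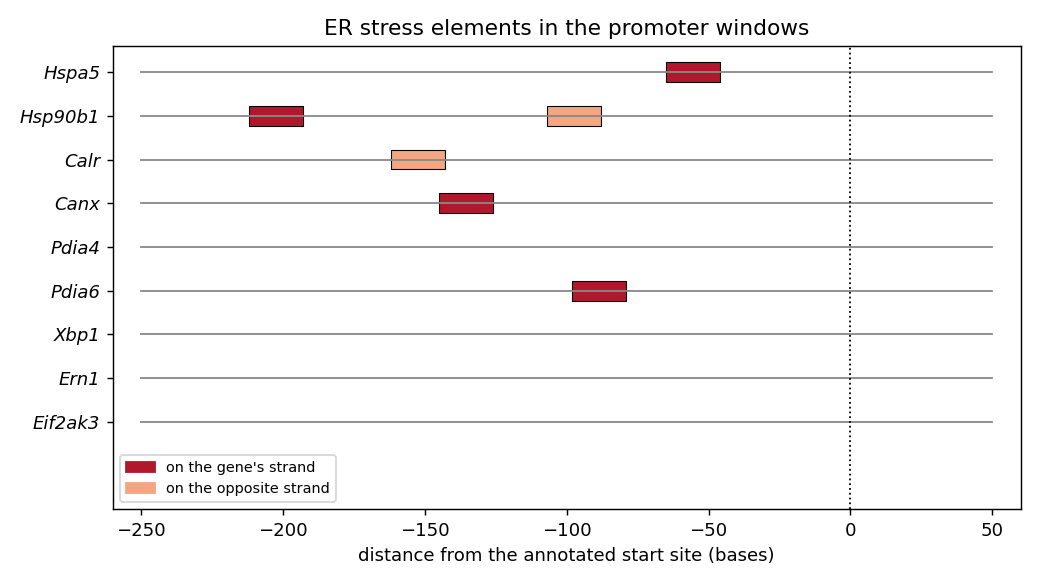
Position of ER stress elements (boxes of 19 bases) in the promoter windows of the 9 genes with a RefSeq window, by distance from the annotated start site in bases. Dark boxes lie on the strand of the gene and light boxes on the opposite strand, and the element is seen in Hspa5, Hsp90b1, Calr, Canx and Pdia6.

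The wider ER folding and stress machinery was examined in 10 lists with 155 genes, of which 153 could be tested. Below, the 2 largest rises and falls with at least 10 CPM in the higher group are named for each list, with the mean CPM of both groups or with the log2 fold change alone, and genes outside that rule are marked as chosen after their values were seen. All p-values are edgeR adjusted p-values, and no test of a list as a whole was made. The shares of all tested genes that were called (35.4% higher and 35.5% lower) apply to each count. List values and counts are not centred on chromosome medians, and some named genes lay near theirs. Relative to those medians, Dnajc1 was at 0.08, Edem2 at 0.06, Rpn1 at 0.06 and Lman1 at -0.16, and Plod3 turned from -0.15 to 0.21. Several more lost part of their difference, among them Faf2 (-0.75 to -0.21), Ssr1 (-0.98 to -0.44), Sec61a2 (0.51 to 0.23) and Vimp (0.38 to 0.22). Others kept most of their difference, such as Wfs1 at -2.78 and P4ha2 at 1.63.

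Cochaperones of BiP and other luminal chaperones were mostly lower in KMT2D KO, opposite to Hspa5 itself. Of 15 tested, 2 were higher, 10 lower and 3 not called, with a median log2 fold change of -0.37. Dnajb9, the J-domain protein that brings BiP to IRE1, had 39.7 CPM in KMT2D KO and 90.5 CPM in KMT2D WT (log2 fold change -1.19, adjusted p = 2.37e-09). Dnajc3, the J-domain inhibitor of PERK, had 179.9 CPM in KMT2D KO and 316 CPM in KMT2D WT (-0.81, adjusted p = 3.57e-09). Cnpy2 (67.2 CPM in KMT2D KO and 40.3 CPM in KMT2D WT, 0.74) and Dnajc1 (118 CPM in KMT2D KO and 92.1 CPM in KMT2D WT, 0.35) were higher in KMT2D KO. Chosen after its value was seen, Hyou1, the nucleotide exchange factor of BiP, had 157 CPM in KMT2D KO and 275 CPM in KMT2D WT (-0.81, adjusted p = 3.65e-09). Relative to their chromosome medians, Dnajb9, Dnajc3 and Hyou1 stayed lower, at -1.05, -0.68 and -0.51. Of the other genes called lower, also chosen after their values were seen, Dnajb11 turned from -0.36 to 0.08. Sdf2l1, Manf and Sil1 were then at -0.05, -0.11 and -0.14.

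Disulfide isomerases and oxidases split, with 7 higher, 7 lower and 2 not called among 16 tested and a median of 0.05. Prdx4, an ER peroxiredoxin that uses hydrogen peroxide to form disulfides, had 77.8 CPM in KMT2D KO and 25.0 CPM in KMT2D WT (log2 fold change 1.64), and the isomerase gene Pdia5 had 18.5 CPM in KMT2D KO and 10.4 CPM in KMT2D WT (0.83). The transmembrane thioredoxin gene Tmx3 had 67.7 CPM in KMT2D KO and 149 CPM in KMT2D WT (-1.14). Ero1l, the oxidase that recharges the isomerases, had 129 CPM in KMT2D KO and 258 CPM in KMT2D WT (-0.99). The 2 most abundant isomerase genes, chosen after their values were seen, were higher in KMT2D KO like Pdia4 and Pdia6: P4hb at 1718 CPM in KMT2D KO and 1204 CPM in KMT2D WT (0.51), and Pdia3 at 913 CPM in KMT2D KO and 703 CPM in KMT2D WT (0.38). Relative to their chromosome medians, P4hb was at 0.44 and Pdia3 at 0.10. Txndc5, chosen in the same way, was not called, with 401 CPM in KMT2D KO and 408 CPM in KMT2D WT (adjusted p = 0.665).

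Folding enzymes for collagen were mostly higher in KMT2D KO, with 10 higher, 1 lower and 2 not called among 13 and a median of 0.53. The collagen prolyl 4-hydroxylase gene P4ha2 had 238 CPM in KMT2D KO and 73.0 CPM in KMT2D WT (log2 fold change 1.71, adjusted p = 3.00e-12), and the prolyl 3-hydroxylase gene P3h3 had 192 CPM in KMT2D KO and 84.7 CPM in KMT2D WT (1.18). Plod3, a lysyl hydroxylase gene, was the one called lower (-0.15, adjusted p = 0.0207), a call that was lost with no low-count filter (adjusted p = 0.0985) and without KMT2D KO replicate 1 (0.130) or 2 (0.103) or KMT2D WT replicate 2 (0.0691), in a range of 0.000456 to 0.13 over the 14 alternative fits. The summed level of 10 fibroblast markers was also higher in KMT2D KO, at 21595 to 22616 CPM, against 5807 to 6021 CPM in KMT2D WT, with 7 markers at a mean of 1 CPM or more in KMT2D KO and 9 in KMT2D WT. The fibrillar collagen genes Col1a1, Col1a2 and Col3a1 made up most of that sum, with Col1a2 at 9385 CPM in KMT2D KO and 2808 CPM in KMT2D WT and Col3a1 at 7661 CPM in KMT2D KO and 836 CPM in KMT2D WT. The 10 markers did not move together, as 7 were called higher and 3 lower: Dpt had 0.839 CPM in KMT2D KO and 44.8 CPM in KMT2D WT (-5.69), Thy1 was at -1.60 and Lum at -1.29. Other marker lists differed as well. The 8 markers of other immune cells summed to 3.20 to 3.87 CPM in KMT2D KO and 10.3 to 16.1 CPM in KMT2D WT, with Cd68 (-2.02), Csf1r (-1.41), Adgre1 (-3.61) and Ptprc (-2.24) lower. The 7 keratinocyte markers summed to 16.4 to 17.8 CPM in KMT2D KO and 11.3 to 15.2 CPM in KMT2D WT, and among them Trp63 had 10.2 CPM in KMT2D KO and 0.784 CPM in KMT2D WT (3.77), while Dsp had 1.06 CPM in KMT2D KO and 6.25 CPM in KMT2D WT (-2.55). The part of these markers in the results was not tested. Of 7 markers of plasma cells, the textbook secretory cell, 2 had a mean of at least 1 CPM in each group (Sdc1 and Prdm1, which other cells also express), while Jchain and Mzb1 stayed below 0.1 CPM and Tnfrsf17 was at 0.

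Among other stress sensors, kinases and processing proteases, 9 were higher, 5 lower and 1 not called of 15 tested, with a median of 0.20. Wfs1, an ER membrane protein gene whose human counterpart is mutated in Wolfram syndrome, had 41.1 CPM in KMT2D KO and 362 CPM in KMT2D WT (log2 fold change -3.14, adjusted p = 2.15e-15). Creb3l1, which encodes an ATF6-like membrane-bound factor known for collagen production in bone, had 62.9 CPM in KMT2D KO and 20.7 CPM in KMT2D WT (1.61). Eif2ak4, the amino acid sensing eIF2 alpha kinase GCN2, had 88.9 CPM in KMT2D KO and 25.7 CPM in KMT2D WT (1.79), while Eif2ak3 was at 0.38. The kinases' shared substrate gene, Eif2s1, had 85.6 CPM in KMT2D KO and 122 CPM in KMT2D WT (-0.51).

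Genes listed for PERK output and for the reversal of eIF2 alpha phosphorylation were all called but did not move one way. Of these 9, 5 were higher and 4 lower, with a median of 0.29. Both regulatory subunits of the phosphatase that reverses eIF2 alpha phosphorylation were higher in KMT2D KO. Ppp1r15b had 266 CPM in KMT2D KO and 89.8 CPM in KMT2D WT (log2 fold change 1.57, adjusted p = 2.20e-12), and Ppp1r15a had 229 CPM in KMT2D KO and 88.6 CPM in KMT2D WT (1.37, adjusted p = 2.06e-11). Trib3 had 4.71 CPM in KMT2D KO and 12.7 CPM in KMT2D WT (-1.43), and the glutathione-degrading enzyme gene Chac1 had 9.23 CPM in KMT2D KO and 19.5 CPM in KMT2D WT (-1.07). The remaining genes of this list are given after their values were seen. Ddit3, which encodes the pro-apoptotic factor CHOP, had 21.5 CPM in KMT2D KO and 44.1 CPM in KMT2D WT (-1.04), and Nupr1 was also lower (-0.73). Atf4 was higher, with 401 CPM in KMT2D KO and 329 CPM in KMT2D WT (0.29, adjusted p = 0.000368), as were Atf3 (0.54) and Sesn2 (0.49).

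Degradation, glycosylation, translocation and export lists had medians near 0. Of 20 ER-associated degradation genes, 5 were higher, 6 lower and 9 not called (median 0.00), among them Vimp (0.38) and Edem2 (0.33) on the higher side and the ubiquitin-conjugating enzyme gene Ube2g2 (-0.84) and Faf2 (-0.75) on the lower side. Chosen after its value was seen, Herpud1, a UPR-induced member of the ubiquitin ligase complex, had 56.4 CPM in KMT2D KO and 94.8 CPM in KMT2D WT (-0.75). Of 15 N-glycosylation and glucose trimming genes, 6 were higher, 7 lower and 2 not called (median -0.14). Mogs, the first trimming glucosidase, had 49.3 CPM in KMT2D KO and 21.6 CPM in KMT2D WT (1.19), and Uggt1, which re-glucosylates misfolded glycoproteins so that Calr and Canx products bind them again, had 240.3 CPM in KMT2D KO and 373 CPM in KMT2D WT (-0.63). Rpn1 (0.48) and Magt1 (-0.75) were the other named members of that list.

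Translocon and signal peptidase genes were higher in 5 cases, lower in 9 and not called in 4 of 18 (median -0.11), with Srp68 (0.56) and Sec61a2 (0.51) higher and Sec11c (-1.27) and Ssr1 (-0.98) lower. Of 17 genes of KDEL receptors and COPII export, 5 were higher, 5 lower and 7 not called (median 0.02). Kdelr3, a receptor that returns escaped luminal chaperones such as BiP to the ER, had 67.0 CPM in KMT2D KO and 19.8 CPM in KMT2D WT (1.76), and Sec16a was also higher (0.69). The cargo receptor genes Mcfd2 (-1.05) and Lman1 (-0.66) were lower. Chaperones outside the ER went mostly the other way from Hspa5 and Calr: of 15 cytosolic and mitochondrial heat shock genes, 2 were higher, 12 lower and 1 not called (median -0.71). Hsph1 had 56.9 CPM in KMT2D KO and 159 CPM in KMT2D WT (-1.48), and mitochondrial Hspa9 had 340 CPM in KMT2D KO and 827 CPM in KMT2D WT (-1.28), while Dnajb1 had 91.5 CPM in KMT2D KO and 41.7 CPM in KMT2D WT (1.13). Hspa1a (0.98) is nearly identical to Hspa1b, so the counts of both are uncertain. Chosen after its value was seen, Hspa1b went the other way, with 15.7 CPM in KMT2D KO and 26.5 CPM in KMT2D WT (-0.75).

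**Figure D5:**
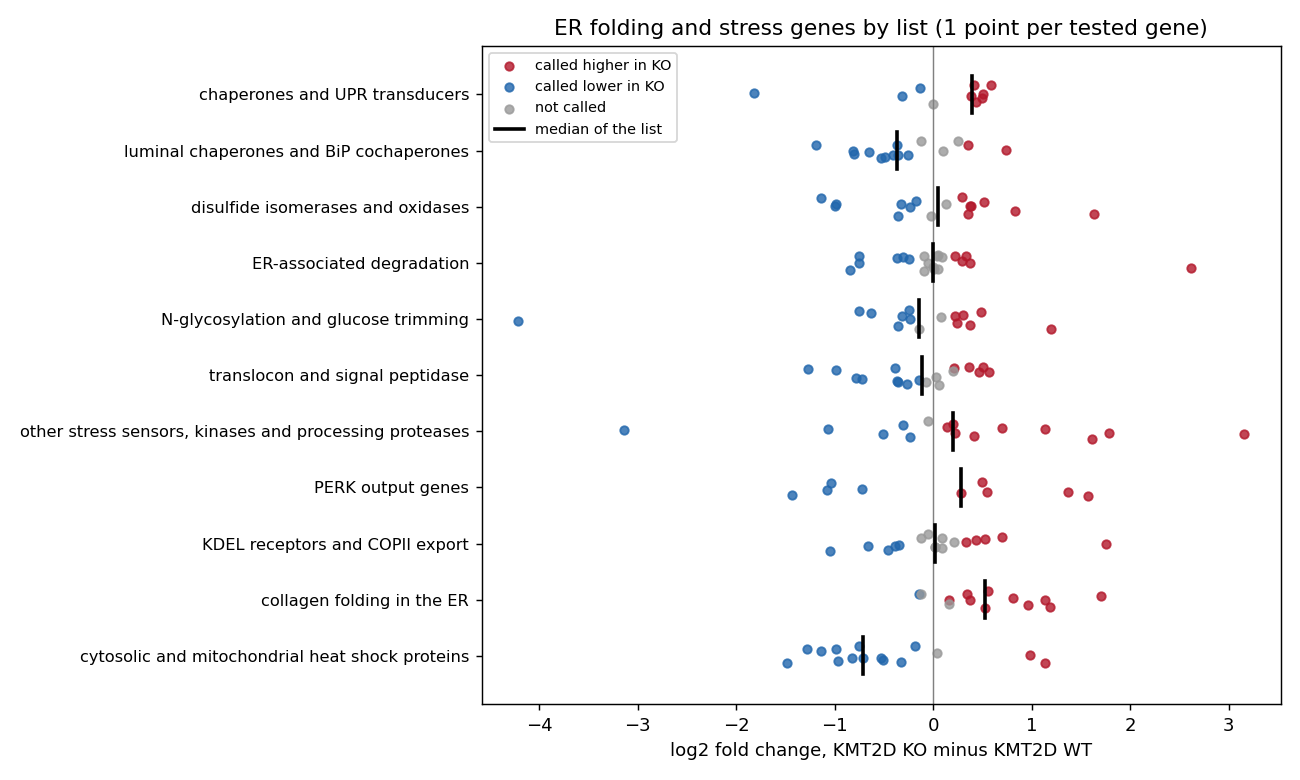
Log2 fold change, KMT2D KO minus KMT2D WT, of each tested gene in the 10 lists and of the 10 chaperone and transducer genes (top row), with 1 point per gene, colours for the call and black bars for medians. Medians range from -0.71 (heat shock proteins outside the ER) to 0.53 (collagen folding), with 0.40 for the top row.

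Across the 6 libraries, the profile of Hspa5 was set against 9039 other genes that averaged 10 CPM or more, as the root mean square difference of log2 CPM after centring each gene on its own mean. The 3 nearest were Clk1 (0.0276), Cxcl1 (0.0300) and Cd3eap (0.0320). Xbp1 ranked 54th, Pdia6 70th, Pdia4 71st, Calr 88th and Eif2ak3 316th, while Hsp90b1 ranked 3314th, Canx 4330th, Atf6 5742nd and Ern1 8663rd. These 6 points form 2 groups, so the measure mostly reflects the difference between the groups.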

How the data were processed

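The authors deposited raw fragment counts of 24391 genes, summed over mm9 exons by featureCounts 1.5.2, per the file headers. The recorded command set no strand option, so both strands were counted, and fragments with several mapping places or several genes were left out by default. The submitters' processing notes also name STAR, HTSeq and mm9, with no role given. Gene coordinates are those of the files (mm9), while promoter windows are RefSeq's on GRCm38.p6, and no coordinate was converted.

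Groups followed the sample titles. Counts were tested with edgeR 4.0.16 in R 4.3.3 (TMM scaling, default low-count filter by group, quasi-likelihood F test, group only), with Benjamini-Hochberg adjustment over 14579 genes. The standard error was the log2 fold change divided by the square root of F. CPM used TMM-scaled library sizes, and RPKM divided CPM by exonic length in kilobases. The test was checked on simulated counts in which 200 genes were changed. That is far fewer than were called here, so the check does not cover the error rate in these data. Libraries of a group differed by more than sampling noise (chi-square of 11.1 to 25.0 per degree of freedom). Alternatives were RLE factors, library size alone, DESeq2 1.42.0, limma 3.58.1 voom, no filter, a filter at 1 CPM, robust empirical Bayes, the replicate block, leaving out each library, and centring on chromosome medians.

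The 10 genes and all lists were chosen with earlier results of these data known. Named list genes were the 2 largest called rises and falls with at least 10 CPM in the higher group. Protein sequences were not used here.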

Additional observations from a re-analysis of the deposited data

How the results depend on the processing

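Under 14 alternative fits (other scalings, tools, filters, a robust fit, the replicate block and leaving out each library), 8 to 9 of the 10 genes were called, 6 of them higher, and over all genes 9371 to 10798 were called. Leaving out 1 library gave 8 to 9 of the 10 genes and 9542 to 10798 genes. Canx is the gene whose call was lost. Scaling by library size alone shifted the median over all tested genes by -0.11 (log2), and Hspa5 was then at 0.39, Hsp90b1 at -0.11 (not called, adjusted p = 0.0713, in a range of 0.0713 to 0.981 over the 14 fits) and Canx at -0.24. Relative to the median of chromosome 6, Eif2ak3 turned from higher to lower (-0.039). Replicate numbers are shared between the groups, and deviations of same-numbered libraries correlated by only 0.0149, 0.00949 and 0.00846. Differently numbered libraries were not compared in this way, so whether the numbers pair the libraries was not settled. With the replicate number as a block, 9 of the 10 genes and 10368 genes were called, and Hspa5 was at 0.51. In the collagen folding list the count of lower genes was 0 to 2. The lowest count of the 10 genes was 1489, and counting error alone gives a coefficient of variation of 0.263% to 2.47%. The spread between libraries was above it in all but 1 of 20 gene and group values. The exception was Canx in KMT2D KO (0.0690% against 0.374% from counting), and Eif2ak3 in KMT2D WT was close (2.19% against 2.05%).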
